A study of Mus musculus with 10 samples.

Results

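Long intergenic noncoding RNAs were read in mouse mesenchymal stem cells with 15546 autosomal array probes that the array's maker designed to intergenic regions of the genome (probe names beginning A_30_P). The 7005 probes described here were chosen by their scanner flag: a probe had to be well above the local background on both arrays of at least 1 of 5 groups of cells. That is 45.1% of the autosomal long intergenic probes, on an array of 55681 probes that are not controls. The detection flags therefore chose the members, and the shares detected are a description that was not tested. The chosen probes lie in 2450 of 3397 annotated regions, with 3404 on the forward and 3601 on the reverse strand of mm9, the mouse genome build the files use. Levels below are log2 signals relative to the array's 75th percentile, so that 0 is that percentile and a difference of 1 is a doubling.

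The 10 arrays held 1 culture each, in 5 groups of 2 independent cultures of FVB cells at passages 2 to 5, collected in exponential growth. Wild-type ASC (stem cells from fat) and wild-type BM-MSC (from bone marrow) carried the WT genotype label. Null ASC and null BM-MSC were labelled Rb-/-p53-/-: by the growth protocol, cells with RbloxP/loxP and p53loxP/loxP alleles spent 10 days in osteogenic medium and were then infected with Ad-CMV-Cre, an adenovirus that expresses the Cre recombinase under the CMV promoter. The source labels of these groups name Rb-/-p53-/- mice instead. The tumor line was established from a tumor of NSG mice, which lack most of the immune system, after subcutaneous inoculation with primed null BM-MSC. It is 1 line in duplicate cultures. The label tumorigenic was given to null BM-MSC and to this line, and not to the other 3 groups. Only null cells are labelled as primed, and the labels do not say whether wild-type cells were infected. Deletion, priming and any effect of the virus cannot be told apart in the null comparisons, which are called deletion for short. All wild-type and null arrays were on 1 slide, where each genotype filled its own row, and the arrays of the tumor line were on a second slide. Slide and group cannot be told apart in any comparison of the tumor line.

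Long intergenic noncoding RNAs are transcripts of the stretches between protein-coding genes that have no evident protein product. Many are spliced and polyadenylated like messenger RNA, and as a class they are known for lower levels and narrower cell-type ranges. Some act in the nucleus: HOTAIR binds Polycomb complexes, NEAT1 scaffolds paraspeckles, and NEAT2 (Malat1) sits in nuclear speckles. Imprinted clusters such as those of H19, Meg3 and Airn each carry noncoding RNAs made from 1 parental copy, and p53 is a known activator of several noncoding RNAs.

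The probes are 60 bases long and were laid down in the sense of the RNA: 163 of 167 probes found in RefSeq promoter windows matched their annotated strand. The sequences that follow are those of the probes on which the results turn. They run 5′ to 3′ in lower case, and capitals mark AATAAA, the hexamer that commonly signals polyadenylation.
H19: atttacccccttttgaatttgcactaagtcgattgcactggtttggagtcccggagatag
HOTAIR: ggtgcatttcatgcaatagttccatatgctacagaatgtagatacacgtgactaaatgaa
NEAT1: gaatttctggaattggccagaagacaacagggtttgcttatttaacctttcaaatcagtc
TUG1: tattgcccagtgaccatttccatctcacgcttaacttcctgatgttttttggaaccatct
Meg3 to Mirg domain, A_30_P01026799: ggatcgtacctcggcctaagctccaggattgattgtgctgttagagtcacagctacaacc
Airn side, A_30_P01018135: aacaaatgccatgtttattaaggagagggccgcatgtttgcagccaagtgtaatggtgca
Gnas side, A_30_P01030153: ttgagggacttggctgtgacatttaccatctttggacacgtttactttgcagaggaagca
Cdkn1a side, A_30_P01027010: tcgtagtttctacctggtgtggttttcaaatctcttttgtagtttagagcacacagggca
Myc side, A_30_P01031088: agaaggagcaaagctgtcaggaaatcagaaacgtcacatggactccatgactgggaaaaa
The next set marks unnamed regions that gave large differences after deletion of Rb and p53, between tissues and in the tumor line, and 1 region read on both strands.
A_30_P01032089: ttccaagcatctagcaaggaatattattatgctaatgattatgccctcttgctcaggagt
A_30_P01025511: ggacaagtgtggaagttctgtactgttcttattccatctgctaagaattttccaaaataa
A_30_P01023682: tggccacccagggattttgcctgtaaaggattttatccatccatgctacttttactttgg
A_30_P01028861: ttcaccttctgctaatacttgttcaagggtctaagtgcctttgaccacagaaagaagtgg
A_30_P01023295: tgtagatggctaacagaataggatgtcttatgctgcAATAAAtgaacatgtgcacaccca
A_30_P01019818: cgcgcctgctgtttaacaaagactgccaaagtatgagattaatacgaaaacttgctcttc
A_30_P01024210: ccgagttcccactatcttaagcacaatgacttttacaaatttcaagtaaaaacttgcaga
A_30_P01031633: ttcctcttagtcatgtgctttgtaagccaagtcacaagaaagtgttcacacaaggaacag
A_30_P01022661: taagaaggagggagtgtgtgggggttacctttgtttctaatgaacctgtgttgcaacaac
A_30_P01024606, forward strand: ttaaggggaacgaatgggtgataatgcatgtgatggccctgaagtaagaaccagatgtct
A_30_P01021070, reverse strand of the same region: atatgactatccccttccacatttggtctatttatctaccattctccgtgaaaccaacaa
Of these, A_30_P01023295 holds the hexamer. Among all autosomal long intergenic probes 3.94% held it on the probe strand, against 12.7% of the other autosomal probes. It was in 3.70% of the detected and 4.14% of the undetected long intergenic probes. Base composition moved more clearly with detection. Under 35% G and C, 15.0% of the probes were detected, and at 55% or more, 66.9% were.

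Long intergenic RNA was read less often than the rest of the genome, and in fewer groups. Per array, 36.6% to 44.6% of the long intergenic probes were well above background, against 59.6% to 63.8% of the other autosomal probes. On both arrays of a group, 5851 probes (37.6%) were detected in wild-type and 5418 (34.9%) in null ASC. In BM-MSC the counts were 5776 (37.2%) for wild-type and 5379 (34.6%) for null cells, and in the tumor line 5696 (36.6%). All 5 groups detected 4379 of the 7005 members (62.5%), against 80.6% of the other detected autosomal probes. A single group detected 875 members (12.5%), against 6.01% of the others.

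**Figure D1:**
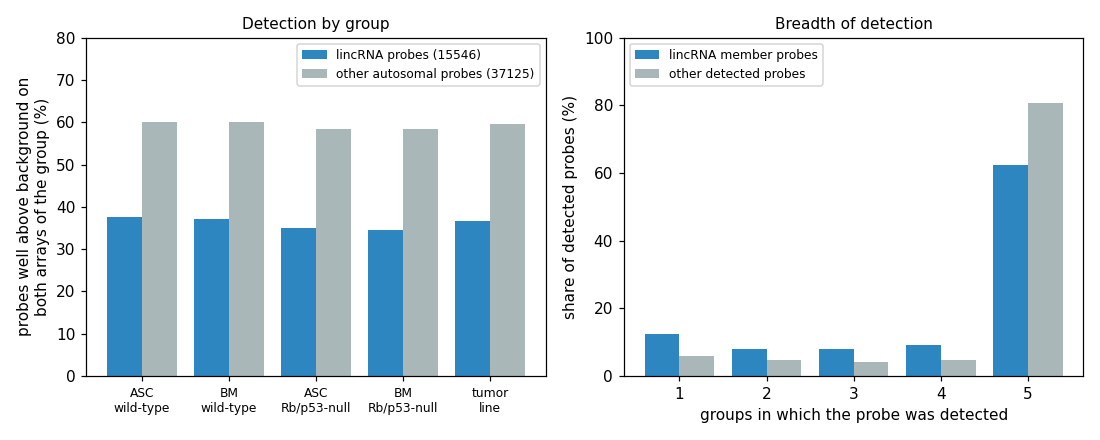
Left, bars give the percentage of probes well above background on both arrays of each group, for 15546 long intergenic and 37125 other autosomal probes. Right, bars give the percentage of the detected probes by the number of groups that detected them. Long intergenic probes were detected at 34.6% to 37.6% per group, and 62.5% of the members were detected in all 5 groups.

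The rule's edge fell at dim signal. The brightest group of each member had a median level of -2.95, and the dimmest 10% of members lay at or below -4.60. Among the probes left out, 1793 were well above background on at least 1 array and had a median of -5.30 in their brightest group. Member signals were low, with array medians of -3.42 to -3.72, and their changes were less precise: a change had a median SE of 0.222 (log2), against 0.0905 for the other autosomal probes. The arrays behind these values had 75th percentiles of 484 to 622 scanner units, 53.3% to 58.4% of spots well above background and no saturated spot. The number of arrays, 2 per group, limits the precision.

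The cell labels were checked on other probes. All 10 markers of mesenchymal stem cells were well above background in every group, with list medians of 3.25 to 3.58. Of the markers of other cell types, both arrays of a group measured 4 or 5 of 5 for macrophages, with the highest level at 2.8 to 4.54. For endothelium both arrays measured 2 of 4 in every group, with the highest level at 1.56 to 2.11, and for other blood cells 1 or 2 of 5. They measured 1 of 3 epithelial markers in each group except wild-type BM-MSC, where none was measured, 1 or 2 of 3 neural markers, and 1 of 4 adipocyte markers, except 3 of 4 in wild-type BM-MSC. Cdh5 and Tek of endothelium and Epcam of epithelium were not well above background on any array, while Pecam1 and Kdr of endothelium were measured in every group. The epithelial marker measured was Cdh1 in null BM-MSC and Krt8 in both ASC groups and the tumor line. The part of these cell types in the results was not tested. Markers of osteoblasts moved with the tissue and with the tumor line: the median of their 5 levels was -4.38 for wild-type and -5.13 for null ASC, -0.18 for wild-type and 2.23 for null BM-MSC, and -5.45 for the tumor line. Both arrays measured all 5 markers in each BM-MSC group, 4 in wild-type ASC, and 2 in null ASC and in the tumor line. Of the deleted genes, Rb1 read 1.31 on both wild-type and -1.91 and -1.97 on the null arrays of ASC, and 1.90 and 1.92 on the wild-type and 0.65 and 0.54 on the null arrays of BM-MSC. Trp53 read 1.11 and 1.01 on wild-type and -4.49 and -5.12 on null ASC arrays, and 0.83 and 0.71 on wild-type and -0.89 and -1.12 on null BM-MSC arrays. The tumor line read -1.98 and -1.97 for Rb1, and for Trp53 -7.57 and -7.59, which is not well above background. Signal of both genes was thus only partly lower in the library labelled null BM-MSC, and where the probes lie relative to the floxed exons was not examined. In bulk RNA, fewer cells of a type and less RNA per cell cannot be told apart.

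Tests were made with limma on all 33062 probes that passed the detection rule, with Benjamini-Hochberg adjustment over all of them and calls at an adjusted p under 0.05. A change is a difference of log2 levels, ± its SE from this fit, with n = 2 cultures per group. Over all members, deletion was followed by 473 rises and 630 falls in BM-MSC, so that 15.8% of 7001 tested members were called. Of all probes tested 34.2% were called in that comparison. In ASC 654 rose and 727 fell (19.7%), against 37.6% of all probes, and leaving out wild-type ASC replicate 1 turned the balance, with 59.3% of the calls then being rises. The difference between these effects passed for 934 members (13.3%), against 27.4% of all probes. The 4377 tested members detected on all 10 arrays owe their place to no single group, and 803 of them (18.3%) were called in BM-MSC and 1028 (23.5%) in ASC, against 38.5% and 42.8% of all probes so detected. The difference of the effects passed for 696 of them (15.9%), against 30.5%. In each of 4 bands of equal probe number over the signal range a smaller share of members than of other autosomal probes was called: in the dimmest band 9.44% against 19% for deletion in BM-MSC, and in the brightest 36.2% against 49.9%.

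Bone marrow and fat cells differed at more members than deletion moved. Null BM-MSC against null ASC gave 1083 higher and 1148 lower members (31.9%), where 51.9% of all probes were called. In wild-type cells 976 were higher and 1204 lower (31.1%), where 50.6% of all probes were called. Of the members detected on all 10 arrays, 33.4% and 33.6% were called in these comparisons, against 55.4% and 54.1% of all probes so detected.

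Among the 7 comparisons the tumor line against null BM-MSC gave the most calls: 1465 members were higher and 2107 lower than in null BM-MSC, 51.0% of those tested, where 66.7% of all probes were called. Against wild-type BM-MSC, 1320 were higher and 2034 lower (47.9%), where 64.6% of all were. These 2 comparisons and those of null BM-MSC share arrays. Of the members detected on all 10 arrays 891 rose and 1510 fell against null BM-MSC, 54.9% in all, while 70.8% of all probes so detected were called, 35.2% higher and 35.6% lower. Against wild-type BM-MSC 806 of these rose and 1425 fell, 51.0%, while 68.6% were called over all, 33.7% higher and 34.9% lower. Over all tested members the median change in the tumor line against null BM-MSC was -0.202, against -0.0185 over the other autosomal probes. Scaling arrays by their median instead moved the member median to -0.0936 and the share of rises among the member calls from 41.0% to 48.2%, and for wild-type BM-MSC from 39.4% to 48.9%. With another background correction (normexp) and quantile normalization, the member median against null BM-MSC was -0.0477 and 46.7% of the member calls were rises. Without tumor line replicate 1 the member median was -0.275, and without replicate 2 it was -0.0958.

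**Figure D2:**
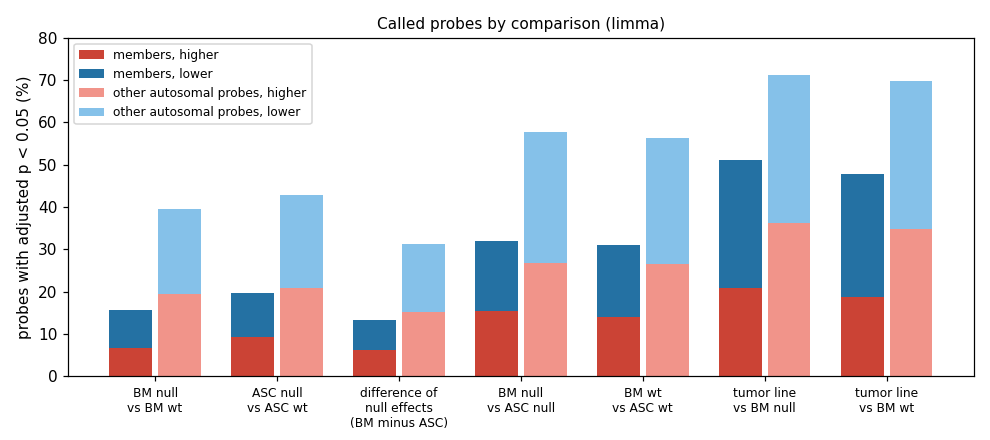
Bars give the percentage of probes called higher and lower (limma, adjusted p under 0.05) in 7 comparisons, for the 7001 tested members and 24506 other autosomal probes. Members were called less often in every comparison, from 13.3% for the difference of effects to 51.0% for the tumor line against null BM-MSC.

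H19, an imprinted noncoding RNA of growing mesenchyme, gave the widest range among the named RNAs on the array. All 5 of its probes were members, and the 4 without an outlier spot were tested, at chr7:149761435-149764019 on the reverse strand. A_30_P01021588 (chr7:149761693-149761752) read -3.29 and -3.18 in wild-type ASC and 4.31 and 4.60 in wild-type BM-MSC. Null ASC read -2.09 and -1.97, null BM-MSC 6.86 and 6.94, and the tumor line -0.97 and -0.92. The 4 bone marrow arrays lay far above all others, the null pair above the wild-type pair, and no groups overlapped. H19 was 5.43-fold higher in null than in wild-type BM-MSC, a change of 2.44 ± 0.11 (adjusted p = 2.52e-05). In ASC the null cells were 2.31-fold higher, by 1.21 ± 0.11 (adjusted p = 0.000281). The bone marrow change exceeded that in ASC by 1.24 ± 0.15 (adjusted p = 0.00185). Between tissues the difference was 8.93 ± 0.11 in null and 7.69 ± 0.11 in wild-type cells, which are 487-fold and 207-fold. The tumor line fell 230-fold below null BM-MSC (-7.84 ± 0.11, adjusted p = 5.39e-08) and 42.3-fold below wild-type BM-MSC. All 4 tested probes gave the same calls in these comparisons, except that the excess in bone marrow passed the test for 3 of 4.

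HOTAIR, a noncoding RNA transcribed from the HoxC cluster, had 4 member probes of 5 at chr15:102774492-102778161 on the reverse strand. A_30_P01019150 read -5.26 and -5.78 in wild-type ASC and -4.08 and -4.00 in wild-type BM-MSC. Null ASC read -5.00 and -5.35, null BM-MSC -3.74 and -3.83, and the tumor line -6.17 and -6.45. Both tumor line arrays were the lowest, and both bone marrow groups lay above ASC. All 4 members fell in the tumor line against null BM-MSC. Of these, A_30_P01030952 met the detection rule through null BM-MSC alone, which fixes its direction. A_30_P01019150 was not well above background in the tumor line and was at least 3.36-fold lower there (adjusted p = 5.09e-05). A_30_P01022414 was the 1 member that both tumor line arrays measured, and it changed by -1.06. No HOTAIR member passed the test between null and wild-type cells, where changes ran from -0.01 to 1.37 in BM-MSC and from -1.10 to 0.34 in ASC. The values 1.37 and -1.10 were those of A_30_P01030952. The tumor line was on another slide and lacked most osteoblast marker signal, as given above, and the part of these in the result was not tested.

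After deletion NEAT1 fell in ASC, and the effect of deletion differed between the tissues. Its 5 probes, at chr19:5842306-5845476 on the reverse strand, were all members. A_30_P01023251 read 4.38 and 4.19 in wild-type ASC and 3.84 and 4.06 in wild-type BM-MSC. Null ASC read 3.8 and 3.65, null BM-MSC 4.30 and 4.41, and the tumor line 4.07 and 3.92. The null ASC arrays were the lowest of their tissue and the null BM-MSC arrays the highest of theirs, with gaps under 1 log2 unit. In ASC all 5 probes fell, with changes of -0.65 to -0.56, and in BM-MSC 2 of 5 rose, by 0.40 and 0.41. The difference between the tissues was 0.97 ± 0.16 (adjusted p = 0.00703) for this probe and 0.88 to 0.97 over the 5. For A_30_P01023251 the separate changes were less secure: the fall in ASC did not pass without wild-type ASC replicate 1 (-0.46, adjusted p = 0.0526) or null ASC replicate 2 (-0.48, adjusted p = 0.0581). The rise in BM-MSC did not pass without wild-type replicate 1 (0.30, adjusted p = 0.169) or without null replicate 1 (0.47, adjusted p = 0.082) or 2 (0.35, adjusted p = 0.158).

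NEAT2 differed between tissues and TUG1 between tissues and in the tumor line. The 3 NEAT2 probes, at chr19:5795689-5802671, differed between wild-type tissues alone among the 7 comparisons, with changes of -0.94 to -0.89 in BM-MSC against ASC, and the call for A_30_P01019221 was lost without wild-type BM-MSC replicate 1 (-0.72, adjusted p = 0.0744). TUG1, a broadly expressed noncoding RNA, had 5 member probes at chr11:3539796-3547536. A_30_P01033104 read 2.10 and 2.14 in wild-type ASC and 2.73 and 2.67 in wild-type BM-MSC. Null ASC read 2.10 and 2.17, null BM-MSC 2.58 and 2.58, and the tumor line 0.79 and 0.98. The tumor line arrays were the lowest and the BM-MSC arrays the highest, without overlap between the tissues. All 5 probes fell in the tumor line against null BM-MSC, with changes of -1.77 to -1.56, and were higher in BM-MSC than in ASC, by 0.44 to 0.61 in null and 0.58 to 0.71 in wild-type cells. Of the other named RNAs, KCNQ1ot1 had 1 member of 5 probes, NRON 2 of 5, PINC 1 of 5 and BRN1-A 2 of 4. The 5 probes of lincP21, a noncoding RNA beside Cdkn1a that p53 is known to induce, were not members, and a member within its annotated span is described with Cdkn1a.

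**Figure D3:**
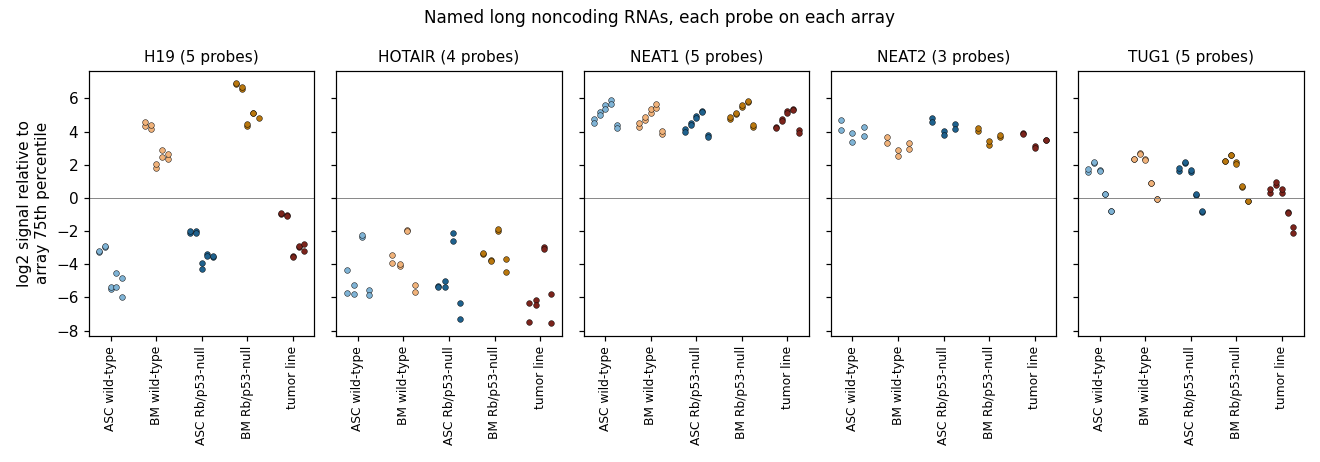
Each point is 1 probe on 1 array, as log2 signal over the array's 75th percentile, for 5 named noncoding RNAs in the 5 groups. H19 separated both BM-MSC groups from the rest on every probe, TUG1 was lowest in the tumor line on every probe and HOTAIR was lower there than in either BM-MSC group, and NEAT1 and NEAT2 stayed within a narrow range.

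The imprinted loci were the largest group of members near listed genes. Within 100 kb of a probe for 8 of 16 listed imprinted genes lay 93 members in 26 regions. In null against wild-type BM-MSC 18 of them rose and 3 fell, where 16.5% and 17.8% of all probes tested did. In null against wild-type ASC 5 rose and 4 fell, where 18.4% and 19.2% of all did. In the tumor line against null BM-MSC 47 rose and 14 fell, with a median change of 0.89, while 33.2% and 33.4% of all probes rose and fell and the other autosomal probes had a median of -0.0185. With the 34 members that 1 of these groups did not measure set to their bound, and 2 without a bound left out, the median was 0.71. Members that met the detection rule through the tumor line alone, which fixes their direction, were not counted apart here.

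Most of the rises in the tumor line came from the Dlk1 to Mirg domain of chromosome 12, where a chain of noncoding RNAs, snoRNAs and miRNAs is transcribed from the maternal copy. There 56 members in 13 regions spanned chr12:110653637-110986503. In the tumor line 40 rose and 3 fell against null BM-MSC, with changes of -0.98 to 5.30 and a median of 2.63. Null BM-MSC or the tumor line did not measure 26 of the 56, and with these at their bound the median was 1.77. For any member that met the detection rule through the tumor line alone, that choice fixes the direction. Such members were not counted apart in this domain, so the count of rises is a description. A_30_P01026799 (chr12:110897958-110898017, forward) read 0.97 and 0.88 in wild-type ASC and -0.72 and -0.74 in wild-type BM-MSC. Null ASC read 0.85 and 0.51, null BM-MSC -1.11 and -1.04, and the tumor line 3.33 and 3.42. The tumor line arrays were the highest, ASC came next and BM-MSC last, with no overlap between these 3 sets. The tumor line was 21.9-fold above null BM-MSC (4.45 ± 0.11, adjusted p = 4.11e-07) and higher than wild-type BM-MSC by 4.11 ± 0.11. On the gene probes, Meg3 itself was higher in the tumor line by 4.36 ± 0.17 and Mirg by 3.82 ± 0.11.

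Rises were read on both strands of the domain. Whether the reverse signal came from RNA of that strand was not tested. The highest tumor line level was 3.38 among forward and -0.58 among reverse members. On the forward strand, that of Meg3, 27 of 37 members rose and 2 fell, with a median of 3.26 without bounds. On the reverse strand 13 of 19 rose and 1 fell, with a median of 2.23, also without bounds. The exceptions included A_30_P01027471 on the reverse strand, which changed by -0.98 ± 0.14 (adjusted p = 0.000932). A_30_P01019435, 1.12 kb from the Mirg probe, read -0.98 and -1.36 in wild-type ASC and -2.49 and -2.20 in wild-type BM-MSC. Null ASC read -1.16 and -1.42, null BM-MSC -2.42 and -2.86, and the tumor line 1.05 and 1.04. It followed the same order of tumor line, ASC and BM-MSC, and rose by 3.68 ± 0.20 (adjusted p = 9.15e-06). Few members changed after deletion. In BM-MSC 3 rose and 3 fell, where 16.5% and 17.8% of all probes did. In ASC none rose and 2 fell, where 18.4% and 19.2% of all did. The Meg3 gene probe, which is not a member, did fall after deletion. It changed by -1.52 ± 0.17 (adjusted p = 0.000993) in BM-MSC and by -0.77 ± 0.17 (adjusted p = 0.0143) in ASC. That of Mirg did not pass, at -0.25 ± 0.11 and -0.27 ± 0.11. Between tissues, 23 members were lower in null BM-MSC than in null ASC and none higher. Over all probes 27.8% were lower and 24.1% higher in that comparison. The domain also holds A_30_P01029937, which shares at least 25 bases with the hairpin of Mir410 and read highest in the tumor line, at -2.06 and -2.23, and lowest in null BM-MSC, at -5.14 and -5.31.

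**Figure D4:**
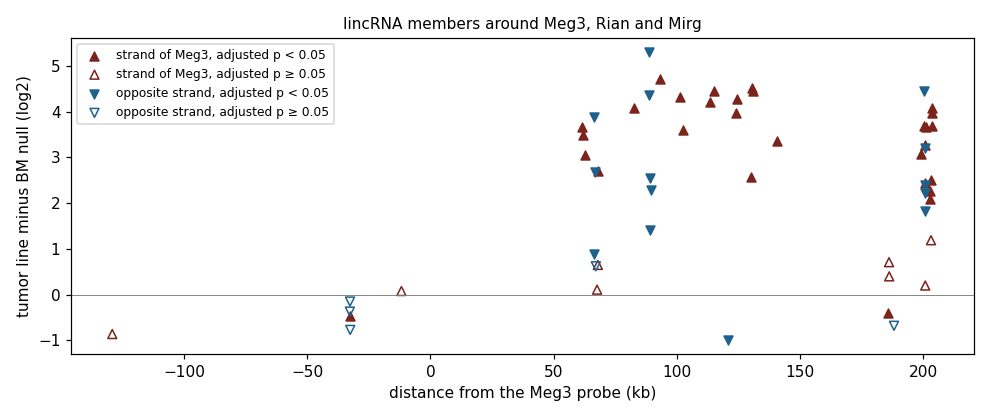
Each symbol is 1 of the member probes around Meg3 and Mirg, placed by its distance from the Meg3 probe in kb, with the tumor line minus null BM-MSC difference (log2) on the vertical axis. Symbol shape gives the strand, and filled symbols passed the test. Filled rises of up to 5.30 stood on both strands beyond the Meg3 probe.

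Around Airn, the noncoding RNA that silences Igf2r on the paternal copy, 11 of 16 members in 5 regions rose in null against wild-type BM-MSC and none fell. In ASC 1 rose and none fell. A_30_P01018135 (chr17:12944580-12944639, forward) read 1.03 and 0.20 in wild-type ASC and -1.35 and -0.94 in wild-type BM-MSC. Null ASC read 0.87 and 0.56, null BM-MSC 0.39 and 0.54, and the tumor line 0.05 and -0.09. Wild-type BM-MSC was the low group, apart from all the others. The rise in BM-MSC was 3.05-fold, 1.61 ± 0.28 (adjusted p = 0.00579), and 12 of the 16 members were lower in wild-type BM-MSC than in wild-type ASC. The difference between tissues in the effect of deletion passed for 10 of 16 members and was 1.51 ± 0.40 (adjusted p = 0.0343) for this probe. It did not pass under 10 of 18 alternatives, among them leaving out wild-type BM-MSC replicate 1 (1.30, adjusted p = 0.103) and null BM-MSC replicate 2 (1.43, adjusted p = 0.0973).

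At Gnas, which encodes a G protein subunit and carries several imprinted transcripts, no member changed outside the comparisons of the tumor line, where 6 of 9 fell against null BM-MSC. A_30_P01030153 (chr2:174098155-174098214, reverse) read -1.32 and -2.07 in wild-type ASC and -1.81 and -1.38 in wild-type BM-MSC. Null ASC read -0.75 and -1.13, null BM-MSC -1.49 and -1.30, and the tumor line -7.56 and -6.82. The 8 stem cell arrays lay close together, and the tumor line was not well above background on either array. Against the dimmest measurable signal, the probe was at least 17.7-fold lower in the tumor line than in null BM-MSC and at least 15.3-fold lower than in wild-type BM-MSC. Beside Snrpn, a spliceosomal gene in another imprinted cluster, 5 of 7 members were higher in BM-MSC than in ASC both with and without deletion. A_30_P01029835 (chr7:67114753-67114812) read -3.53 and -3.28 in wild-type ASC and -1.25 and -1.09 in wild-type BM-MSC. Null ASC read -2.96 and -4.41, null BM-MSC -1.31 and -1.19, and the tumor line 0.01 and 0.05. Its tissue difference in wild-type cells was 2.24 ± 0.42 (adjusted p = 0.00452).

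Near targets of p53, falls in bone marrow came mainly from members at a pair of loci, with 5 beside Cdkn1a and 5 between Ccnd2 and Tigar. Of 41 members within 100 kb of 9 of 24 listed target genes, 1 rose and 12 fell in null against wild-type BM-MSC, where 16.5% and 17.8% of all probes tested did, with a median change of -0.13, against 0.00765 over the other autosomal probes. In ASC 5 rose and 6 fell, below the 18.4% and 19.2% of all probes. Beside Cdkn1a, the gene of the cell-cycle inhibitor p21, 5 of 7 members fell in BM-MSC. A_30_P01027010 (chr17:29207178-29207237, reverse, 20.8 kb from the Cdkn1a probe) read -3.78 and -4.23 in wild-type ASC and -3.16 and -2.63 in wild-type BM-MSC. Null ASC read -4.34 and -4.45, null BM-MSC -4.32 and -4.27, and the tumor line -2.72 and -2.56. The null arrays of both tissues were the lowest 4, and the tumor line was near the highest wild-type array. The fall in BM-MSC was 2.64-fold, -1.40 ± 0.21 (adjusted p = 0.00293), and the tumor line exceeded null BM-MSC by 1.65 ± 0.21 (adjusted p = 0.00047). The Cdkn1a gene probe itself fell in the tumor line, by 1.79 ± 0.08, opposite to this member. The member also lies within the coordinates annotated for lincP21, chr17:29194418-29215906 on the same strand, although the array assigns it to another region.

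Btg2, an antiproliferative p53 target, had 3 members beside it, of which 2 fell in BM-MSC and 3 in ASC. A_30_P01027147 (chr1:135956757-135956816, reverse) read 0.06 and -0.05 in wild-type ASC and -1.14 and -1.21 in wild-type BM-MSC. Null ASC read -1.29 and -1.25, null BM-MSC -2.0 and -2.35, and the tumor line -1.90 and -1.99. Each null group was below its wild-type group, with changes of -1.0 ± 0.12 in BM-MSC and -1.28 ± 0.12 in ASC. Beside Mdm2, which encodes the ubiquitin ligase of p53, 5 of 10 members rose in null ASC and none changed in BM-MSC. A_30_P01018019, whose nearest detected gene probe is that of Kifc5c-ps at 0.215 kb, read 0.32 and -0.28 in wild-type ASC and 1.03 and 0.76 in wild-type BM-MSC. Null ASC read 1.29 and 1.37, null BM-MSC 1.04 and 1.11, and the tumor line 1.19 and 1.0. Wild-type ASC was the low group, and the rise there was 1.31 ± 0.20 (adjusted p = 0.00276), while the Mdm2 gene probe, 93.3 kb away, fell by 2.06 ± 0.05. A region between Ccnd2 and Tigar, chr6:127111250-127142925, gave small falls on all 5 forward members in null BM-MSC, with changes of -0.65 to -0.51, and rises in the tumor line by 0.47 to 0.57.

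Some forward-strand members around Myc and Pvt1 on chromosome 15 fell in both null groups. Of 8 members in 2 regions within 100 kb of a Myc probe, 2 fell in null BM-MSC and 4 in null ASC, and none rose. Of all probes 17.8% and 19.2% fell in these comparisons. Myc encodes a growth-promoting transcription factor, and Pvt1 is the noncoding gene beside it. In the region chr15:61870759-61938796, A_30_P01031088 (chr15:61870890-61870949) read -1.29 and -1.45 in wild-type ASC and -2.36 and -2.18 in wild-type BM-MSC. Null ASC read -3.52 and -4.18, null BM-MSC -4.13 and -3.84, and the tumor line -4.32 and -4.48. All null and tumor line arrays were below all wild-type arrays. The fall was 3.28-fold in BM-MSC (-1.71 ± 0.22, adjusted p = 0.00157) and 5.59-fold in ASC (-2.48 ± 0.22, adjusted p = 0.000292). The Myc gene probe did not pass the test in BM-MSC, at -0.27 ± 0.09. In the region chr15:61984389-62102500, 5 of 7 forward members fell in null BM-MSC and 6 in null ASC, and 5 rose again in the tumor line. A_30_P01031040, of these, read -3.01 and -3.16 in wild-type ASC and -3.24 and -3.17 in wild-type BM-MSC. Null ASC read -4.16 and -4.60, null BM-MSC -5.10 and -4.98, and the tumor line -2.78 and -2.71. In null BM-MSC it was well above background on 1 of 2 arrays. In null against wild-type BM-MSC it changed by -1.83 ± 0.14 (adjusted p = 0.000218), and it was higher in the tumor line than in null BM-MSC by 2.29 ± 0.14 (adjusted p = 1.63e-05). Of the 8 reverse members of this region, 3 rose and 1 fell in null BM-MSC and none changed in null ASC. Among them, A_30_P01030270 fell in the tumor line, by 2.19 ± 0.11 (adjusted p = 6.97e-06). In all, of 23 members within 100 kb of 4 of 12 listed cell cycle and tumor genes, none rose and 9 fell in null BM-MSC, where 17.8% of all probes fell. In null ASC none rose and 4 fell, which is near the 19.2% of all probes. The 5 members beside Ccnd2 are counted in this list and in that of p53 targets.

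Large changes after deletion were also seen away from the named RNAs and the listed genes. In bone marrow, A_30_P01018891 (chr10:94906076-94906135, reverse) read 3.1 and 3.14 in wild-type ASC and 2.71 and 2.47 in wild-type BM-MSC. Null ASC read 3.18 and 3.23, null BM-MSC 4.87 and 4.83, and the tumor line 0.57 and 0.28. Null BM-MSC was the highest group and the tumor line the lowest. The rise was 4.79-fold, 2.26 ± 0.11 (adjusted p = 4.38e-05), and exceeded that in ASC by 2.17 ± 0.16. Among the falls, all 3 members at chr5:26333765-26338143 fell in null BM-MSC, with changes of -4.23 to -3.76, and none passed in ASC, at 0.26 to 0.34. A_30_P01032089 (chr5:26337920-26337979, forward) read -3.82 and -4.89 in wild-type ASC and -1.52 and -1.10 in wild-type BM-MSC. Null ASC read -4.03 and -4.15, null BM-MSC -6.15 and -4.92, and the tumor line -6.91 and -5.88. Wild-type BM-MSC stood above the other 4 groups. The fitted fall was -4.23 ± 0.56 (adjusted p = 0.0018), but null BM-MSC was well above background on 1 of 2 arrays, and with the other at the dimmest measurable signal the change was -3.67, or 12.8-fold. A further region of chromosome 5, chr5:14921737-14978834, also fell on 3 of 3 members, of which A_30_P01031045 was not well above background in null BM-MSC and at least 10.2-fold lower there. A_30_P01030592 (chr9:96677851-96677910), 3.1 kb from the nearest detected gene probe, C430002N11Rik, read 0.32 and 0.29 in wild-type ASC and -1.0 and -1.25 in wild-type BM-MSC. Null ASC read -0.90 and -1.0, null BM-MSC -4.50 and -4.07, and the tumor line -3.87 and -4.34. It fell in both tissues, with changes of -3.16 ± 0.20 (adjusted p = 9.3e-05) in BM-MSC and -1.25 ± 0.20 (adjusted p = 0.00324) in ASC.

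In fat-derived cells a large fall was seen at chr4:149445201-149445902, where all 3 members fell, with changes of -4.62 to -4.35 in null ASC and -1.71 to -1.65 in null BM-MSC. A_30_P01025511 (chr4:149445831-149445890, forward) read 1.38 and 1.03 in wild-type ASC and 0.51 and 0.87 in wild-type BM-MSC. Null ASC read -3.29 and -3.54, null BM-MSC -1.25 and -0.79, and the tumor line -4.41 and -4.27. The null ASC fall was 24.5-fold, -4.62 ± 0.21 (adjusted p = 2.93e-05), and exceeded that in BM-MSC, the difference being 2.91 ± 0.30 (adjusted p = 0.00105). At chr10:3227840-3233588, beside Cnksr3, all 5 members fell in null ASC and 1 in null BM-MSC. There A_30_P01033360 changed by -2.29 ± 0.22 (adjusted p = 0.000405) in ASC. Among the rises was that of A_30_P01023682 (chr13:60524146-60524205, reverse), which read -4.81 and -4.63 in wild-type ASC and -1.82 and -1.78 in wild-type BM-MSC. Null ASC read -1.89 and -1.99, null BM-MSC -2.52 and -2.80, and the tumor line -1.91 and -2.07. Wild-type ASC was the low group, apart from the other 4. Null ASC was 6.88-fold higher, by 2.78 ± 0.12 (adjusted p = 2.19e-05), while null BM-MSC changed from wild-type BM-MSC by -0.86 ± 0.12 (adjusted p = 0.00193), and the difference of the effects was -3.64 ± 0.16 (adjusted p = 5.76e-05).

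Regions that separated bone marrow from fat cells were read in both genotypes. At chr5:67865049-67868521, A_30_P01028861 (chr5:67868462-67868521, forward), 0.316 kb from a probe of C330024D21Rik, read -7.66 and -7.66 in wild-type ASC and 0.85 and 0.96 in wild-type BM-MSC. Null ASC read -7.41 and -7.44, null BM-MSC 0.77 and 0.77, and the tumor line -7.66 and -7.83. The 4 bone marrow arrays were close together, and the other 6 arrays were not well above background. A_30_P01028861 met the detection rule through the BM-MSC groups alone, so its place above the other groups follows from that. The probe was at least 88.2-fold higher in BM-MSC than in ASC for wild-type and at least 65.1-fold for null cells, and at least 79.3-fold lower in the tumor line than in null BM-MSC. All 3 members of the region gave these calls. At chr8:105742425-105852975 all 5 forward members were higher in BM-MSC than in ASC and lower in the tumor line than in null BM-MSC. There A_30_P01028815 read -4.73 and -4.32 in wild-type ASC and 1.14 and 1.13 in wild-type BM-MSC. Null ASC read -3.08 and -2.98, null BM-MSC 1.15 and 1.27, and the tumor line -5.00 and -4.29. It was 50.7-fold higher in BM-MSC than in ASC for wild-type cells (5.66 ± 0.24, adjusted p = 5.07e-06) and rose in null ASC by 1.5 ± 0.24 (adjusted p = 0.00352).

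Other members marked the fat-derived cells. A_30_P01021981 and A_30_P01023295 share 1 sequence at chr19:60238435-60238494, beside E330013P04Rik, and A_30_P01023295 read 3.05 and 3.09 in wild-type ASC and -2.95 and -2.81 in wild-type BM-MSC. Null ASC read 3.73 and 3.81, null BM-MSC -1.75 and -1.84, and the tumor line -6.18 and -6.07. ASC was the higher tissue, 61.8-fold in wild-type cells (BM-MSC minus ASC -5.95 ± 0.07, adjusted p = 7.48e-08) and 47.3-fold in null cells. A_30_P01018759 (chr2:117819348-117819407) read 1.82 and 1.68 in wild-type ASC and -5.84 and -5.26 in wild-type BM-MSC. Null ASC read 0.07 and 0.02, null BM-MSC -5.16 and -5.29, and the tumor line -7.00 and -7.61. Its BM-MSC minus ASC difference was -7.29 ± 0.25 (adjusted p = 1.94e-06) for wild-type cells, where 1 of 2 BM-MSC arrays was well above background. The osteoblast markers listed above were higher in BM-MSC than in ASC too, and their part in these differences was not tested.

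Hox genes, which set position along the body axis, are known to differ between stromal cells of different sites. Within 100 kb of 6 of 39 Hox genes lay 33 members, 2 higher and 8 lower in wild-type BM-MSC than in wild-type ASC. Over all probes 23.7% were higher and 26.8% lower, so the count is not above the background. The 3 forward members at chr11:96175764-96176029, beside Hoxb4, were all lower in BM-MSC. A_30_P01019818, 6.92 kb from the Hoxb4 probe, read 1.10 and 0.38 in wild-type ASC and -5.76 and -6.37 in wild-type BM-MSC. Null ASC read 1.17 and 0.94, null BM-MSC -6.62 and -5.90, and the tumor line -1.04 and -1.38. ASC was high, the tumor line lay between, and BM-MSC was not well above background on any array. A_30_P01019818 met the detection rule through the other groups alone, so their place above BM-MSC follows from that. The probe was at least 82.4-fold lower in BM-MSC than in ASC for wild-type and at least 79.8-fold for null cells, and at least 16.6-fold higher in the tumor line than in null BM-MSC. The Hoxb4 gene probe had the same order, with changes of -5.48 ± 0.38 between wild-type tissues and 4.90 ± 0.38 in the tumor line. Beside Hoxb9, A_30_P01019010 (chr11:96114981-96115040, reverse) read 1.80 and 2.01 in wild-type ASC and 4.27 and 4.13 in wild-type BM-MSC. Null ASC read 0.88 and 0.84, null BM-MSC 2.46 and 2.38, and the tumor line 0.41 and 0.40. It was higher in BM-MSC and fell after deletion, with changes of -1.78 ± 0.09 in BM-MSC and -1.04 ± 0.09 in ASC. The tumor line was lower again, at -2.02 ± 0.09 (adjusted p = 3.47e-06) from null BM-MSC. Near 3 of 20 listed genes of bone and stromal fate lay 6 members, among which the 3 beside Pparg, the regulator of fat cell fate, gave 2 rises in null ASC.

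Restriction to 1 group was most frequent in the tumor line. Of 257 members well above background on both arrays of 1 group and on no array of any other, 146 were in the tumor line. ASC had 39 in wild-type and 29 in null cells, and BM-MSC 26 and 17. These are 3.67% of the members, and 2.62% of the other detected probes were so restricted. Of the other probes so restricted, 343 of 643 were in the tumor line too. With the flag for a positive and significant signal the tumor line had 69 of 146 restricted members, and 358 of 875 where single arrays elsewhere were allowed. The flags that chose the members also give these counts, which were not tested. A_30_P01022661 (chr3:30124843-30124902, reverse, 10.6 kb from the nearest detected gene probe, Mecom) read -7.42 and -5.35 in wild-type ASC and -5.52 and -5.67 in wild-type BM-MSC. Null ASC read -5.98 and -6.30, null BM-MSC -5.98 and -5.68, and the tumor line -0.59 and -0.87. It was chosen as detected in the tumor line alone, so its place above the 8 other arrays follows from that choice. As a description, the probe was at least 23.0-fold higher in the tumor line than in each other group, and all 5 members of its region, each of which met the detection rule through the tumor line alone, were higher there than in null BM-MSC.

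Among the largest rises in the tumor line were those on chromosome 4 beside Cdkn2a and Cdkn2b, genes of cell-cycle inhibitors and of the p53 activator Arf. All 3 members at chr4:88745770-88774130 were higher than in null BM-MSC, where none was well above background. A_30_P01024210 (chr4:88745833-88745892, reverse, 80.4 kb from the Mtap probe and 175 kb from a Cdkn2a probe) read -0.93 and -0.96 in wild-type ASC and -4.58 and -4.88 in wild-type BM-MSC. Null ASC read -1.35 and -1.35, null BM-MSC -7.20 and -7.55, and the tumor line 1.45 and 1.54. The tumor line was the highest group, ASC the next, wild-type BM-MSC low, and null BM-MSC was not well above background. It was at least 108-fold higher in the tumor line than in null BM-MSC and 74.8-fold higher than in wild-type BM-MSC (6.22 ± 0.14, adjusted p = 3e-07). The Cdkn2a gene probe A_55_P2008437 had the same low point: it read 4.79 and 4.59 in wild-type and 5.10 and 5.12 in null ASC, 3.17 and 3.08 in wild-type and -2.26 and -1.82 in null BM-MSC, and 6.93 and 6.77 in the tumor line. Cdkn2b (A_55_P1988183) read 2.63 and 2.62 in wild-type BM-MSC, -3.71 and -3.68 in null BM-MSC, and 5.20 and 5.21 in the tumor line.

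Members along this stretch of the chromosome gave calls in the same direction. From chr4:88551797-89130180, a window set after these values were seen, 31 members in 10 regions were tested, and 25 rose and 1 fell in the tumor line against null BM-MSC, where 33.2% and 33.4% of all probes did. Of the 31, 10 met the detection rule through the tumor line alone, which fixes their direction, and of the other 21 members 15 rose and 1 fell. Over all 31 members, those 10 included, the median change was 3.69. It was 2.11 with the 21 of the 31 that 1 of the compared groups did not measure set to their bound. Annotated regions overlap here, and the 5 reverse probes assigned to chr4:88542373-88589148, towards Ifne, were all higher, 4 of them detected through the tumor line alone, among them A_30_P01029552, at least 16.1-fold above each other group. In null against wild-type BM-MSC 4 of the 31 fell and none rose, where 17.8% and 16.5% of all probes did. On chromosome 10, A_30_P01031633 (chr10:120069162-120069221, reverse, 0.921 kb from a probe of 4930471E19Rik) read -4.83 and -5.57 in wild-type ASC and -3.84 and -4.50 in wild-type BM-MSC. Null ASC read -2.91 and -3.25, null BM-MSC -5.17 and -4.81, and the tumor line 0.81 and 0.75. Only the tumor line was above 0, null BM-MSC was well above background on 1 of 2 arrays, and the tumor line exceeded null BM-MSC 54.5-fold (5.77 ± 0.31, adjusted p = 9.23e-06).

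Members moved with their chromosomes in the tumor line. Against null BM-MSC the median change of members was highest on chromosome 3, at 0.482, with 173 higher and 68 lower, and lowest on chromosome 2, at -0.494, with 52 higher and 198 lower. The other autosomal probes had medians of 0.839 and -0.438 on these chromosomes. Over 19 chromosomes the medians of members and of other probes correlated at r = 0.898 (Spearman's rho 0.854), a description over chromosomes measured on the same arrays. Against wild-type BM-MSC r was 0.906, with a median of 0.515 on chromosome 3. In the 5 comparisons without the tumor line r was 0.0739 to 0.733, and the member medians stayed between -0.194 and 0.169. With normexp and quantile normalization the member medians against null BM-MSC were smaller, at 0.199 on chromosome 3 and -0.164 on chromosome 2. Detection also varied, from 38.6% of the long intergenic probes on chromosome 9 to 52.7% on chromosomes 5 and 19.

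**Figure D5:**
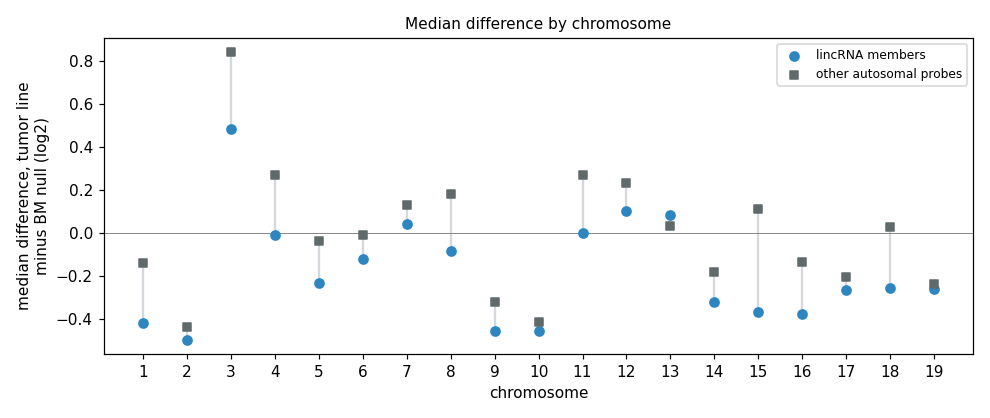
Each point is 1 autosome, with the median tumor line minus null BM-MSC difference (log2) of the other autosomal probes and of the members. Chromosome 3 stood highest for members at 0.482 and chromosome 2 lowest at -0.494, and the medians correlated at r = 0.898 over 19 chromosomes.

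Changes of members correlated with those of the nearest gene, with higher values for close genes on the same strand. For 1618 members whose nearest detected gene probe lay under 10 kb away on the same strand, changes of member and gene correlated at r = 0.600 and 0.587 after deletion in BM-MSC and ASC, 0.750 and 0.754 between tissues in null and wild-type cells, and 0.698 in the tumor line against null BM-MSC. For 859 members within 10 kb of a gene on the opposite strand the same comparisons gave 0.254, 0.211, 0.339, 0.471 and 0.423. Over 100 kb, on either strand, they gave 0.160, 0.0868, 0.277, 0.281 and 0.297 (1006 members). Pairs of neighbouring genes under 10 kb apart on 1 strand gave 0.160 to 0.385 over the 7 comparisons (1589 pairs). These correlations are across probes on the same arrays, which are not independent, and whether a member is part of its neighbour's transcript was not tested.

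Of 1036 regions probed on both strands, 588 (56.8%) had members on both, 351 (33.9%) on 1 strand and 97 (9.36%) on neither. In the tumor line against null BM-MSC, 155 of 587 regions tested on both strands had strands that changed the same way and 52 had strands that changed in opposite ways. The labelling kit's strand behaviour was not examined. At chr5:35975265-35982561 the 3 forward members rose and the 2 reverse members fell after deletion in both tissues. The forward probe A_30_P01024606 read -0.76 and -0.52 in wild-type ASC and -0.05 and -0.22 in wild-type BM-MSC. Null ASC read 1.03 and 1.19, null BM-MSC 1.07 and 0.82, and the tumor line 2.70 and 2.59. The reverse probe A_30_P01021070 read 3.1 and 3.23 in wild-type ASC and 2.54 and 2.39 in wild-type BM-MSC. Null ASC read 1.41 and 1.39, null BM-MSC 1.5 and 1.51, and the tumor line 0.98 and 1.08. Forward signal of these probes was lowest in wild-type cells and highest in the tumor line, and reverse signal had the opposite order. The other reverse member, A_30_P01032382, changed by 0.31 ± 0.05 in the tumor line against null BM-MSC. After deletion the forward probe changed by 1.08 ± 0.13 (adjusted p = 0.00109) in BM-MSC and by 1.75 ± 0.13 in ASC, and the reverse probe by -0.96 ± 0.08 (adjusted p = 0.00023) and -1.76 ± 0.08. Probes of 1 region and strand mostly agreed, although many are close together or share sequence: where 2 or more were called, 90.3% to 97.5% of region strands had all calls in 1 direction.

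Some of the brightest members passed no test. A_30_P01022075 (chr17:17482318-17482377) read between 8.20 and 8.46 on all 10 arrays, and A_30_P01031448 on chromosome 14 between 7.81 and 8.13. Neither passed in any of the 7 comparisons. A_30_P01031754 (chr19:5802130-5802189), 6.42 kb from the Malat1 gene probe, read between 8.58 and 9.15. Gene probes of a separate list of known noncoding RNAs, which are not members, gave a mixed picture: of 28 tested, 8 were higher and 7 lower in null than in wild-type BM-MSC, where 34.2% of all probes were called. In the tumor line 8 were higher and 15 lower than in null BM-MSC, where 66.7% of all were called.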

How the data were processed

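RNA of 10 cultures in 5 groups of 2 was read on 1-colour (Cy3) Agilent arrays read out by Agilent's Feature Extraction software (version 10.7.3.1). Probe positions are on mm9, per the file headers. The deposited intensity is Agilent's processed signal, already background-subtracted, per the file headers. It was converted to log2 here and the array's 75th percentile over spots that are not controls was subtracted. The deposited value table of the series holds log2 values made by the authors, whose submitters' processing notes name limma without a version. It correlated with the values used here at 0.989 to 0.993 per array, its centring is not stated in the sources used here, and it served only as an alternative. Control spots and 37 probes with an outlier spot were left out.

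The members and lists were chosen with earlier results of these data known. The 33062 probes that met the detection rule were fitted with limma 3.58.1 (R 4.3.3), 5 groups and no covariate, with Benjamini-Hochberg adjustment over all of them and calls at an adjusted p under 0.05. Errors are standard errors of that fit (5 residual and 1.36 prior degrees of freedom). Groups are duplicate cultures, so the p-values speak only of the spread between such cultures. The slide goes with the groups and could not be a covariate. The script was checked on simulated data. A probe that a group measured on no array has only a bound: "at least N-fold" sets the brighter mean against, per array, whichever was higher, its own signal or the dimmest one well above background.

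Named members are the 4 largest rises and falls per comparison among separated groups, 1 per region, up to 3 with bounds per direction, up to 3 restricted per group, the 6 brightest, up to 4 called members near each listed gene set (within 100 kb), and up to 4 regions with opposite strands. Others named in the text were picked after their values were seen, among them region neighbours, the probes of named RNAs and the window on chromosome 4. Members on chromosome 18 were counted but not named. The nearest gene is that of the nearest detected probe with a RefSeq symbol, by midpoints. Alternatives changed the background correction, scaling, filter, prior, arrays fitted, replicate block, detection flag and feature, and left out each array.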

Additional observations from a re-analysis of the deposited data

Results flagged for a closer look

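The effect of deleting Rb and p53 differed between the tissues at 934 members (limma, adjusted p under 0.05 for the difference of the BM-MSC and ASC effects). The largest differences among probes that 1 or both arrays measured in all 4 groups follow, as the BM-MSC minus the ASC effect on the log2 scale. A_30_P01025511 differed by 2.91, with a deeper fall in ASC, and A_30_P01023053, 12.6 kb from a Spag9 probe, by 2.79, with a fall in ASC alone passing the test. A_30_P01033360 beside Cnksr3 differed by 2.22. A_30_P01031568, 8.45 kb from an H2bc18 probe, differed by 2.20, rising by 1.07 in BM-MSC and falling in ASC, a change of -1.14. In the other direction A_30_P01032089 differed by -4.49, with 1 of 2 null BM-MSC arrays well above background, A_30_P01023682 by -3.64, A_30_P01032743 in Speer8-ps1 by -3.07 and A_30_P01031633 by -2.94. Among the named RNAs the H19 probe A_30_P01025068 differed by 1.47 and the NEAT1 probe A_30_P01023251 by 0.97.

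Long intergenic probes outside the autosomes also gave signal. On chromosome X 280 of 587 probes (47.7%) met the detection rule, of which 7 were restricted to 1 group, and 137 were called in the tumor line against null BM-MSC. Of 118 probes for which the files give no position 68 (57.6%) met it, and 31 were called in that comparison. Of all probes tested 66.7% were called in it, a larger share than of either set.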

How the results depend on the processing

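Under the alternatives tried, 133 of 153 recomputed values of the counts, shares and correlations stayed within a set range of the main value and 20 moved out of it. Only size was compared there, so the balance of rises and falls was not part of that check. The causes were not tested beyond what each setting changes by construction. Without the filter on dim probes, 731 members were called in null against wild-type BM-MSC and 527 for the difference of effects. With the mean of a region and strand as the feature, of which there are fewer, the calls were 526 for deletion in BM-MSC, 614 in ASC, 453 for their difference, 994 between null and 947 between wild-type tissues, and 1592 and 1488 for the tumor line against null and wild-type BM-MSC. Detection was 72.8% with the flag for a positive and significant signal, 56.6% with 1 array of any group and 28.2% with all 10 arrays. Restriction to 1 group gave 146 members with that flag and 875 where single arrays elsewhere were allowed, and regions with both strands detected rose from 588 to 922. The correlation of members with their nearest genes in the tumor line went from 0.422 to 0.451 within 100 kb and to 0.357 with normexp and quantile normalization, which also gave 0.921 for the chromosome medians.

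Leaving out 1 array at a time gave 737 to 1180 calls for deletion in BM-MSC, 1035 to 1330 in ASC, 621 (without null BM-MSC replicate 1) to 897 for their difference, 1771 to 2328 between null and 1708 to 2140 between wild-type tissues, and 2890 to 3640 and 2648 to 3409 for the tumor line against null and wild-type BM-MSC. Detection then ran from 45.7% to 48.5%. Without wild-type BM-MSC replicate 1 it was 48.5%, and without wild-type ASC replicate 1 the share of rises among ASC calls was 59.3%, against 47.4%. Median scaling moved that share to 40.6%, and the share of higher calls for null BM-MSC against null ASC from 48.5% to 57.9%.

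Same-numbered cultures deviated together at correlations of -0.146 to 0.13, so the numbers were not taken to pair the samples. With the replicate number as a block, 1049 members were called for deletion in BM-MSC, 1319 in ASC, 855 for their difference, 2189 between null and 2108 between wild-type tissues, and 3477 and 3259 for the tumor line.

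Of 1018 changes of named probes that were followed, not all of them called in the main fit, 688 were called under every alternative that held the probe. Of 17786 values, 1676 lost the call, 10 gained it and 3 reversed. A_30_P01031040 (main value -0.66, null BM-MSC against null ASC) was 0.09 with normexp and 0.35 in the deposited value table, and the difference of effects of A_30_P01032679 was 0.14 with normexp. The members' changes had a median SE of 0.222, against 0.0905 for other autosomal probes.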

Other observations

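Noncoding RNA genes that the array reads with other probes showed tissue patterns of their own. Hoxa11os, an antisense RNA of the HoxA cluster, read 4.24 and 4.27 in wild-type ASC and -2.64 and -3.04 in wild-type BM-MSC. Its BM-MSC minus ASC difference was -7.09 ± 0.15 in wild-type and -6.52 ± 0.15 in null cells (limma, adjusted p = 3.42e-07 and 4.07e-07). Crnde, a noncoding RNA named for its expression in colorectal tumors, was higher in wild-type BM-MSC than in wild-type ASC by 2.57 ± 0.08. The gene probe of Pvt1 fell after deletion in both tissues, with changes of -0.88 ± 0.05 in BM-MSC and -1.22 ± 0.05 in ASC, and was 0.83 ± 0.05 higher in the tumor line than in null BM-MSC. That of Airn rose in null BM-MSC by 1.77 ± 0.26 and did not pass in ASC, at 0.11 ± 0.26.

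Some members share 1 sequence with another probe of the array. Over 53 such pairs the changes of both probes correlated at 0.615 to 0.977 in the 7 comparisons, and every pair in which both were called had 1 direction. A_30_P01033484, which overlaps the hairpins of let-7a-1 and let-7c-2, read -3.32 and -2.98 in null BM-MSC and -4.54 and -4.49 in the tumor line.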
